A study of Mus musculus with 6 samples.

Results

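Messenger RNA of 10 megakaryocyte and platelet genes (Pf4, Ppbp, Gp9, Gp1bb, Gp5, Itga2b, Itgb3, Vwf, Selp and Nfe2) was examined in sorted mouse hematopoietic stem and progenitor cells. The genes were taken by name, and all 10 were found among the 15553 genes of the deposited table. The knockout group held 3 libraries from Yy1f/f;Mx1-Cre mice, in which both Yy1 copies are flanked by loxP sites and the Cre recombinase is driven by the interferon-inducible Mx1 promoter. The wild-type group held 3 libraries from Mx1-Cre mice, so that both groups carried the Cre transgene, and the agent used to induce it is not in the labels. All mice were C57BL/6 and 6 to 8 weeks old, and cells came from bone marrow. The source field gives a lineage-negative, Sca1-positive, c-Kit-positive and CD150-positive gate, whereas the protocol adds CD48-negative cells with or without CD150. The labels do not say whether the replicates came from separate mice, so p-values measure the spread between these libraries, which may in part be technical.

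Megakaryocytes are the bone marrow cells that shed platelets. They arise from hematopoietic stem cells under the cytokine thrombopoietin. Platelet alpha granules store the chemokines encoded by Pf4 and Ppbp, von Willebrand factor (Vwf) and P-selectin (Selp). The products of Gp1ba, Gp1bb, Gp9 and Gp5 form the receptor complex that holds platelets to von Willebrand factor, the products of Itga2b (CD41) and Itgb3 pair as the fibrinogen receptor, and Nfe2 encodes a transcription factor needed for platelet release. A subset of stem cells is known to express Vwf and Itga2b, so these transcripts are not restricted to mature megakaryocytes.

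Values are RPKM, reads per kilobase of gene length scaled to the size of the library, so that levels can be compared between genes. Reads recovered in listed genes were 19473175 to 21757039 per knockout library and 15102982 to 18460012 per wild-type library. These sums are estimates that exceed the library sizes implied by the RPKM scaling. Those sizes were 1.74e+07 to 1.95e+07 in knockout and 1.29e+07 to 1.61e+07 in wild type. Yy1 itself stood at 36.2, 16.6 and 28.5 RPKM in knockout replicates 1 to 3 and at 31.6, 42.3 and 52.1 RPKM in the wild-type replicates, and limma on log2(RPKM + 0.5) gave an adjusted p of 0.680. The library labelled Yy1-KO replicate 1 lay inside the wild-type range at this gene, which does not bear out its label, and every value marked knockout includes it. Wild-type replicate 3 stood apart on the first principal component, which held 34.6% of the variance. Of the genes behind the gate, Kit and Ly6a (which encodes Sca1) had over 25 RPKM in every library. Slamf1, which encodes CD150, was at 3.77, 3.89 and 5.96 RPKM in knockout and at 2.21, 2.88 and 3.90 RPKM in wild type, and Cd48 was at 0, 1.97 and 0.431 RPKM in knockout and at 0, 3.76 and 0 RPKM in wild type.

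Gp9, Pf4 and Itga2b stood higher in every knockout library than in any wild-type library, with knockout means at 3.60, 3.69 and 1.66 times the wild-type means. The other members overlapped between genotypes, and Nfe2 alone had a lower mean in knockout. None of the 10 genes passed the test. limma was run on 13179 genes, those reaching 1 RPKM in 3 or more libraries, and called 0 of them (0%) at a Benjamini-Hochberg adjusted p under 0.05. An unadjusted p under 0.05 was found for 1027 genes (7.79%), higher in knockout for 4.73% and lower for 3.06% of those tested, and for 3 of the 9 tested members (Gp9, Pf4 and Itga2b), all higher. With limma-voom on recovered reads, Itga2b alone of the members was under this unadjusted threshold, at an unadjusted p of 0.0225 (adjusted p = 0.578). Pf4 and Gp9 had unadjusted p-values of 0.105 and 0.193 there (limma-voom adjusted p = 0.676 and 0.739). In the authors' deposited table the unadjusted p-values were 0.0146 for Itga2b, 0.0930 for Pf4 and 0.197 for Gp9. After adjustment limma-voom called 8 genes, and the authors' deposited table called 24 of its 15553 genes (0.154%), in neither case a member. Knockout values lay wholly above wild-type values in 7.63% of tested genes and wholly below in 6.87%, against 3 and 0 of the 9 tested members. Gp1bb did not pass the filter, and Ppbp and Selp passed on 4 and 3 libraries, so this count covers 9 genes and not the whole set.

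Start regions of Pf4, Ppbp, Gp9 and Itga2b are shown because Pf4, Gp9 and Itga2b were the genes without overlap between genotypes and because Ppbp is the chemokine neighbour of Pf4. The windows run from 250 bases before to 50 after the RefSeq gene start (GRCm38.p6), written on the strand of the gene. Capitals mark matches, on either strand, to AGATAA for GATA factors, to GGAAGT for the core of ETS factors, or to TATAAA for the TATA box.
Pf4: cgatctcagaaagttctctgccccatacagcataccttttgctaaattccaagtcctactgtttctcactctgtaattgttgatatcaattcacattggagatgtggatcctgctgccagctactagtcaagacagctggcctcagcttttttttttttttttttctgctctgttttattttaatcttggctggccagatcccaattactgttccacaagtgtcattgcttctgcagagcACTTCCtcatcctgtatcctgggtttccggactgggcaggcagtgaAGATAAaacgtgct
Ppbp: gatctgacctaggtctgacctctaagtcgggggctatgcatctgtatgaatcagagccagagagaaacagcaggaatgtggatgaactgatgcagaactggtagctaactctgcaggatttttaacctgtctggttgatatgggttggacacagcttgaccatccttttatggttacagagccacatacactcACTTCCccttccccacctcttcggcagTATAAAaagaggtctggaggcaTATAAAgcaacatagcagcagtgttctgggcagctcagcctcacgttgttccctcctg
Gp9: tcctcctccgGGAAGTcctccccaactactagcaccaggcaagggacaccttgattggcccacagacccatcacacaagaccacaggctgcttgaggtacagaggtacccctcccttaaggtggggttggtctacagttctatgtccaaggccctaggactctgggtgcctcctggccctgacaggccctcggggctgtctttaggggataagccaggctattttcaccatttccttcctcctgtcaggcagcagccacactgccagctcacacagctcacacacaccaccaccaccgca
Itga2b: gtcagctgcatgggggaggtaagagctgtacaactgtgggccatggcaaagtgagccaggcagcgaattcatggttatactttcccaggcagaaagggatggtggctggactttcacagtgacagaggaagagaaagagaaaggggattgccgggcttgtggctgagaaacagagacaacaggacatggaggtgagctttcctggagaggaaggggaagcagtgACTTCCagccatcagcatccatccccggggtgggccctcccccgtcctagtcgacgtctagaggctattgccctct
They lie at chr5:90772185-90772484 (plus strand) for Pf4, chr5:90768268-90768567 (plus) for Ppbp, chr6:87777820-87778119 (plus) for Gp9 and chr11:102469834-102470133 (minus) for Itga2b. Windows were found for 7 of the 10 genes. GGAAGT was present in 6 of the 7 (all but Gp1bb), against 23.8% of all 32851 RefSeq windows of this length. AGATAA was present in 2 of the 7, at Pf4 and Gp5, against 11.2%, and TATAAA in 1 of the 7, at Ppbp, against 13.6%. CAGGAAG (a longer ETS form), TGAGTCA (the NF-E2 core) and AANATGGC (a YY1 form) were present in 0 of the 7, against 13.3%, 5.2% and 6.05%. GGAAGT, which can overlap CAGGAAG, and TATAAA were added after the other 4 motifs had been scanned. A match is a description of letters and not evidence of binding.

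Pf4, which encodes platelet factor 4, had the highest single value among the granule members Pf4, Ppbp, Vwf and Selp. Pf4 (ENSMUSG00000029373, GRCm38 chromosome 5: 90772435 to 90773383) stood at 49.0, 14.5 and 17.0 RPKM in knockout replicates 1 to 3 and at 6.98, 11.1 and 3.75 RPKM in the wild-type replicates. All knockout libraries lay above all wild-type libraries, and knockout replicate 1 lay far above the other two. These values rest on 615, 183 and 240 reads in knockout and 65, 129 and 40 reads in wild type. The means were 26.9 ± 19.2 RPKM in knockout and 7.28 ± 3.69 RPKM in wild type (SD, n = 3 each, as for all later means). On the log2(RPKM + 0.5) scale the knockout exceeded wild type by 1.71 (standard error 0.54; limma unadjusted p = 0.0145, adjusted p = 0.559). This difference was 1.18 without knockout replicate 1, and 0.80 without that library and wild-type replicate 3, a setting added after the data were seen.

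Ppbp, which encodes pro-platelet basic protein, ends 2371 bases before Pf4 starts on the same strand. Ppbp (ENSMUSG00000029372, chromosome 5: 90768518 to 90770063) stood at 8.28, 4.64 and 5.48 RPKM in knockout and at 6.15, 0.0573 and 0.874 RPKM in wild type. The knockout libraries kept within a narrow band, and the wild-type libraries ranged from 1 read in replicate 2 over 14 in replicate 3 to 86 in replicate 1, so the genotypes overlapped. The exact 95% Poisson interval of that single read is 0.0253 to 5.57 reads, which covers counting error only. Ppbp had a log2 fold change of 1.91 (standard error 0.88, limma adjusted p = 0.664). Leaving out wild-type replicate 2 gave 1.10, and leaving out wild-type replicate 1 gave 2.88. Both neighbours stood lowest in wild-type libraries, but not in the same one.

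The other granule cargo and membrane genes, Vwf and Selp, overlapped between genotypes. Vwf (ENSMUSG00000001930, chromosome 6: 125546774 to 125686679) stood at 5.29, 4.40 and 3.17 RPKM in knockout and at 3.33, 2.99 and 2.97 RPKM in wild type. Wild type was tight and knockout replicate 3 fell inside its range. Its log2 fold change was 0.39 (standard error 0.40, limma adjusted p = 0.848). Selp (ENSMUSG00000026580, chromosome 1: 164115264 to 164150026) stood at 2.89, 2.10 and 0.383 RPKM in knockout and at 0.123, 1.93 and 0.506 RPKM in wild type. Each genotype therefore held both low and high libraries, and knockout replicate 3 and wild-type replicate 3 had 33 reads each. The 95% confidence interval of the log2 fold change of Selp ran from -1.17 to 2.74 around 0.79. The antisense genes Gm16548 and Gm16587 overlap Selp, and unstranded reads of the overlap cannot be assigned to either strand.

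**Figure D1:**
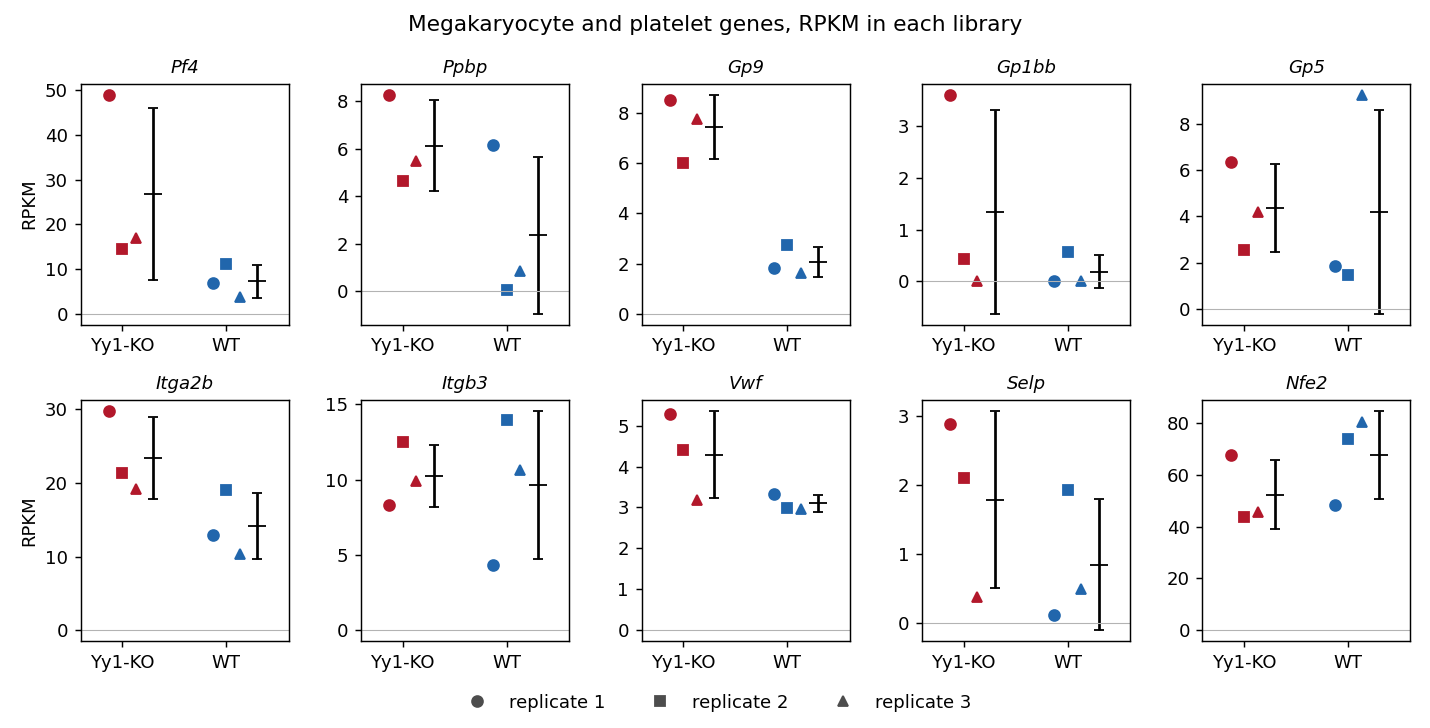
RPKM of each of the 10 genes in the 3 knockout (left, red) and 3 wild-type (right, blue) libraries, with the replicate number given by the symbol and the mean ± SD as a bar beside the points. Gp9, Pf4 and Itga2b have no overlap between genotypes, and knockout replicate 1 is the highest knockout library for 9 of the 10 genes.

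Among the subunits of the von Willebrand factor receptor, Gp9 had the smallest unadjusted limma p-value of the 9 tested members. Its rank depended on the method. With limma-voom on recovered reads, Itga2b had an unadjusted p of 0.0225 and Gp9 one of 0.193. The authors' own unadjusted p-values were 0.0146 for Itga2b and 0.197 for Gp9. Gp9 encodes glycoprotein IX, the small leucine-rich subunit of the complex. Gp9 (ENSMUSG00000030054, chromosome 6: 87778072 to 87779768) stood at 8.54, 6.03 and 7.79 RPKM in knockout and at 1.84, 2.75 and 1.61 RPKM in wild type. The lowest knockout library lay well above the highest wild-type library, and reads were 131, 93 and 134 in knockout and 21, 39 and 21 in wild type. The means were 7.45 ± 1.29 RPKM in knockout and 2.07 ± 0.600 RPKM in wild type, and Gp9 was higher by 1.64 on the log2 scale (standard error 0.40). For this difference limma returned an unadjusted p of 0.00388 and an adjusted p of 0.429. Over the alternatives run, which include leaving out each library, the log2 fold change of Gp9 stayed between 1.41 and 1.84.

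The remaining subunits did not follow Gp9 in every library. Gp5 (ENSMUSG00000047953, chromosome 16: 30307685 to 30310779), the gene of glycoprotein V, stood at 6.36, 2.55 and 4.20 RPKM in knockout and at 1.83, 1.47 and 9.27 RPKM in wild type. Its highest library was wild-type replicate 3, and the groups overlapped throughout. Gp5 had a log2 fold change of 0.38 (limma adjusted p = 0.924). Leaving out wild-type replicate 2 gave -0.049, and leaving out wild-type replicate 3 gave 1.11.

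Gp1bb, the gene of glycoprotein Ib beta, was near the limit of detection. Gp1bb (ENSMUSG00000050761, chromosome 16: 18620317 to 18622403) stood at 3.60, 0.425 and 0 RPKM in knockout and at 0, 0.561 and 0 RPKM in wild type. A count of 0 allows up to 3 reads, which is 0.0736 RPKM in knockout replicate 3, and 0.111 and 0.0972 RPKM in wild-type replicates 1 and 3. Only knockout replicate 1 exceeded 1 RPKM. Gp1bb overlaps Sept5 on the same strand, and reads of the pair cannot be told apart where they overlap. Sept5 (ENSMUSG00000072214) stood at 2.0, 1.29 and 0 RPKM in knockout and at 2.37, 0.321 and 0 RPKM in wild type.

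Gp1ba, which encodes the subunit that contacts von Willebrand factor, is no member of the set but completes the complex. It stood at 8.73, 1.56 and 1.92 RPKM in knockout and at 1.94, 0.114 and 1.77 RPKM in wild type. Knockout replicate 1 again lay far above the other libraries, and the rest overlapped. The difference was 1.25 on the log2 scale (standard error 0.84, limma adjusted p = 0.766).

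The partners of the fibrinogen receptor differed in their pattern. Itga2b (ENSMUSG00000034664, chromosome 11: 102453297 to 102470122) stood at 29.7, 21.3 and 19.1 RPKM in knockout and at 12.9, 19.0 and 10.3 RPKM in wild type. The groups did not overlap, but knockout replicate 3 and wild-type replicate 2 differed little. Reads were 2819, 2030 and 2037 in knockout and 912, 1671 and 830 in wild type. The means were 23.4 ± 5.59 RPKM in knockout and 14.1 ± 4.47 RPKM in wild type, and the log2 fold change was 0.73 (standard error 0.30, limma adjusted p = 0.628). It was 0.55 without knockout replicate 1, and 0.35 without both that library and wild-type replicate 3. A small RNA gene, Gm23563, lies within Itga2b on the same strand.

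Itgb3 (ENSMUSG00000020689, chromosome 11: 104608000 to 104670476), which encodes the beta partner, stood at 8.33, 12.5 and 9.92 RPKM in knockout and at 4.30, 14.0 and 10.6 RPKM in wild type. The knockout values all fell inside the wild-type range. For Itgb3 the log2 fold change was 0.21 with a 95% confidence interval of -0.83 to 1.24 (limma adjusted p = 0.937), and it was -0.26 without wild-type replicate 1. The ratio of Itga2b to Itgb3 in RPKM was 3.57, 1.71 and 1.93 in knockout and 3.01, 1.36 and 0.970 in wild type, with overlap between the genotypes.

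Nfe2, the only transcription factor of the set, was also its most abundant gene. Nfe2 (ENSMUSG00000058794, chromosome 15: 103248212 to 103258403) stood at 67.7, 43.8 and 45.4 RPKM in knockout and at 48.3, 73.9 and 80.4 RPKM in wild type. Knockout replicate 1 lay among the wild-type values and wild-type replicate 1 near the other knockout values, so that the groups overlapped. The means were 52.3 ± 13.3 RPKM in knockout and 67.5 ± 17.0 RPKM in wild type. A log2 fold change of -0.36 (standard error 0.26, limma adjusted p = 0.785) made Nfe2 the only tested member below 0.

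**Figure D2:**
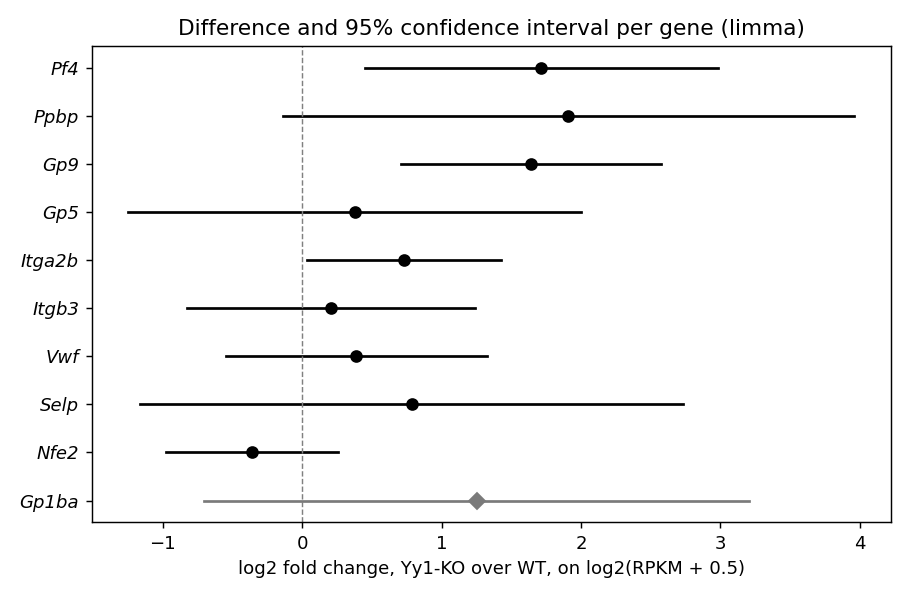
Difference of knockout minus wild type on log2(RPKM + 0.5), with its 95% confidence interval, for the 9 tested members (black circles) and for Gp1ba (grey diamond). The intervals of Pf4, Gp9 and Itga2b lie above 0, and no member passed after adjustment over all genes.

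The order of levels differed in part between the genotypes. In knockout, the mean of Nfe2 was followed by Pf4, Itga2b, Itgb3, Gp9, Ppbp, Gp5, Vwf, Selp and Gp1bb. Neighbours in that order overlapped in their values except Itga2b and Itgb3, and Vwf and Selp. In wild type, the order was Nfe2, Itga2b, Itgb3, Pf4, Gp5, Vwf, Ppbp, Gp9, Selp and Gp1bb, and only Nfe2 and Itga2b were clear of each other. Nfe2 exceeded 93.8% of listed genes in knockout and 95.7% in wild type. Pf4 exceeded 85.5% in knockout and 51.2% in wild type, and Gp9 exceeded 52.0% in knockout and 22.6% in wild type.

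Knockout replicate 1 was the highest of the 6 libraries for 7 members, namely Pf4, Ppbp, Gp9, Gp1bb, Itga2b, Vwf and Selp. Averaged over the 9 tested members after centring each gene, log2(RPKM + 0.5) was 0.84, 0.25 and 0.14 in knockout replicates 1 to 3 and -0.52, -0.31 and -0.41 in the wild-type replicates. The summed RPKM of all 10 members was 189.7, 112.2 and 112.5 in knockout and 85.8, 127.8 and 120.3 in wild type, so the genotypes overlapped in this sum. Nfe2, the most abundant member, makes up much of it, and the sum of the other members was 122, 68.4 and 67.1 in knockout and 37.5, 53.8 and 39.9 in wild type. The separation in the second sum depends on leaving out the member that was lower in knockout. That library is also the knockout library with the highest Yy1 value, and the part of this in the results was not tested. In a bulk library, fewer cells of a type and less RNA per cell cannot be told apart, and the same holds for more.

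Members differed in how far their profiles over the libraries lay from each other. The smallest root mean square difference between centred log2(RPKM + 0.5) profiles over the 6 libraries was 0.32, between Vwf and Itga2b, and Gp9 differed from Itga2b by 0.49 and from Pf4 by 0.51. The largest was 1.79, between Ppbp and Itgb3. Such a difference is also small where both genes vary little. Vwf and Nfe2 differed by 0.48, although their log2 fold changes were 0.39 and -0.36. Outside the set, the tested genes nearest to the mean member profile were Stip1 (0.12), Acap3 (0.12), Mfsd10 (0.12), Msrb3 (0.13) and Fut10 (0.13). Stip1, a co-chaperone gene, stood at 96.4, 67.1 and 66.1 RPKM in knockout and at 46.9, 54.7 and 45.9 RPKM in wild type.

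**Figure D3:**
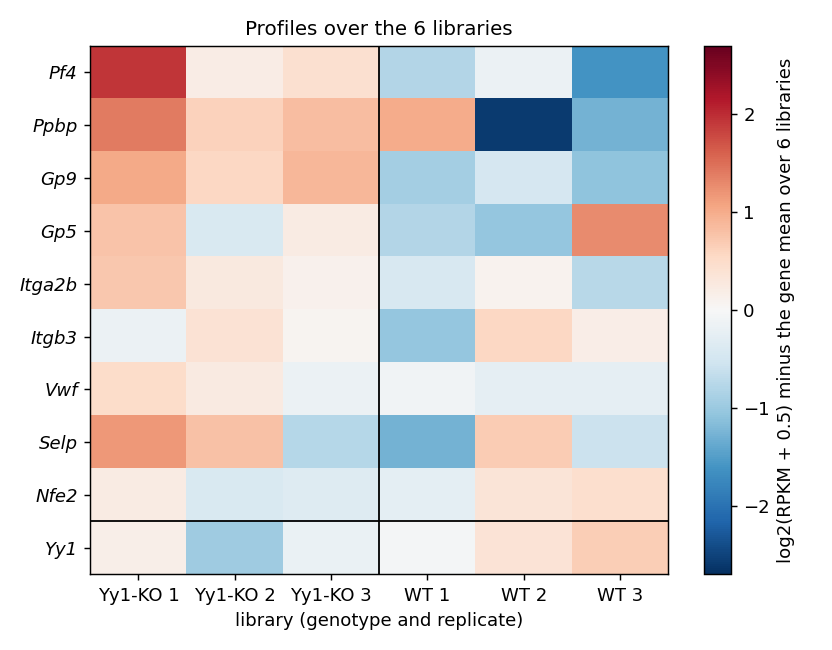
Colour gives log2(RPKM + 0.5) minus the mean of the gene over the 6 libraries, with knockout libraries left of the line and wild-type libraries right of it. The 9 tested members are above the horizontal line, where knockout replicate 1 is the highest library for 6 of them. Yy1 is below it, and knockout replicate 2 is its lowest library.

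The wider megakaryocyte programme did not share the direction of Gp9 and Pf4 as a whole. Of 82 other genes in 4 lists, 74 were listed and 67 were tested. Of these, 27 had a log2 fold change above 0 and 40 below it, with a median of -0.14, while over all tested genes 51.9% lay above 0 and the median was 0.02. The 9 tested members had a median of 0.73, with 8 above 0. That median was 0.44 without knockout replicate 1, which left 8 tested members, 0.44 without wild-type replicate 1 and 0.44 after quantile normalization. None of the 67 passed in limma, and 3 lay apart on the higher side and 10 on the lower side, to be read against the 7.63% and 6.87% given above.

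Among 13 tested surface receptors, 7 lay above 0 and 6 below (median 0.09). The sign of this median was not stable, at -0.19 with no filter, -0.20 with a filter of 5 RPKM, -0.12 without knockout replicate 2, -0.084 without wild-type replicate 1 and -0.043 without wild-type replicate 2. Among those named here are the thromboxane receptor gene Tbxa2r, at 3.0, 3.60 and 4.30 RPKM in knockout and 0.483, 3.70 and 0.652 RPKM in wild type, and the thrombin receptor gene F2r, at 26.6, 31.4 and 37.7 RPKM in knockout and 24.6, 12.9 and 28.2 RPKM in wild type. Both overlapped between genotypes, and their limma adjusted p-values were 0.705 and 0.719. Of the 13 receptors, 0 lay apart on the higher side and 1 on the lower side, against 7.63% and 6.87% of all tested genes.

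Granule and secreted protein genes leaned the other way from Pf4 and Ppbp. Of 14 tested, 4 lay above 0 and 10 below, with a median of -0.40. On the lower side 4 lay apart, against 6.87% of all tested genes. Slc35d3, needed for platelet dense granules in mice, was at 0.262, 0.50 and 0.0195 RPKM in knockout and at 6.48, 1.51 and 7.23 RPKM in wild type. Cd63, a tetraspanin of granule membranes, was at 26.6, 44.5 and 52.1 RPKM in knockout and at 74.1, 74.3 and 138 RPKM in wild type. Angpt1, which encodes angiopoietin-1, was at 174, 162 and 185 RPKM in knockout and at 241, 226 and 259 RPKM in wild type. The groups were apart at each of Slc35d3, Cd63 and Angpt1, and their limma adjusted p-values were 0.461, 0.481 and 0.559. Slc35d3 reached 1 RPKM in the wild-type libraries only, so it passed the filter through the group where it was higher. Its separation and direction are therefore tied to the filter. It is also in the lower-side counts given for this list and for the 4 lists together.

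Of 21 tested transcription factors of the lineage, 6 lay above 0 and 15 below (median -0.17). On the higher side 1 lay apart and on the lower side 2, against 7.63% and 6.87% of all tested genes. The median was between -0.21 without knockout replicate 1 and -0.011 without knockout replicate 3. Gata1, the erythroid and megakaryocyte factor, was at 6.48, 11.5 and 2.25 RPKM in knockout and at 2.06, 4.07 and 4.19 RPKM in wild type, with overlap. The means of Fli1 were 68.8 ± 6.75 RPKM in knockout and 71.6 ± 15.2 RPKM in wild type, and those of Runx1 were 29.2 ± 4.46 RPKM in knockout and 32.5 ± 6.98 RPKM in wild type. Gfi1b, a repressor, averaged 7.69 ± 1.28 RPKM in knockout and 8.48 ± 3.52 RPKM in wild type. The smallest p-values of the list belonged to Tal1, Bach1 and Lyl1, with log2 fold changes of -0.41, -0.44 and -0.78 and limma adjusted p-values of 0.664, 0.744 and 0.746.

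Cytoskeleton, signalling and enzyme genes were split, with 10 of 19 above 0 (median 0.05, but -0.069 without knockout replicate 2 and -0.012 without wild-type replicate 1). Tpm4, a tropomyosin gene of the platelet cytoskeleton, was at 17.9, 15.5 and 35.1 RPKM in knockout and at 2.14, 1.18 and 2.43 RPKM in wild type. Tpm4 was higher in knockout by 3.22 on the log2 scale (standard error 0.43, limma adjusted p = 0.145). Lat, an adaptor of collagen receptor signalling, was at 7.88, 18.1 and 11.7 RPKM in knockout and at 24.5, 29.2 and 22.3 RPKM in wild type (log2 fold change -1.05, limma adjusted p = 0.546). Plcg2, the phospholipase of the same pathway, had a log2 fold change of -0.35 (limma adjusted p = 0.666). Of the 19 genes, 2 lay apart on the higher side and 3 on the lower side, against 7.63% and 6.87% of all tested genes.

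**Figure D4:**
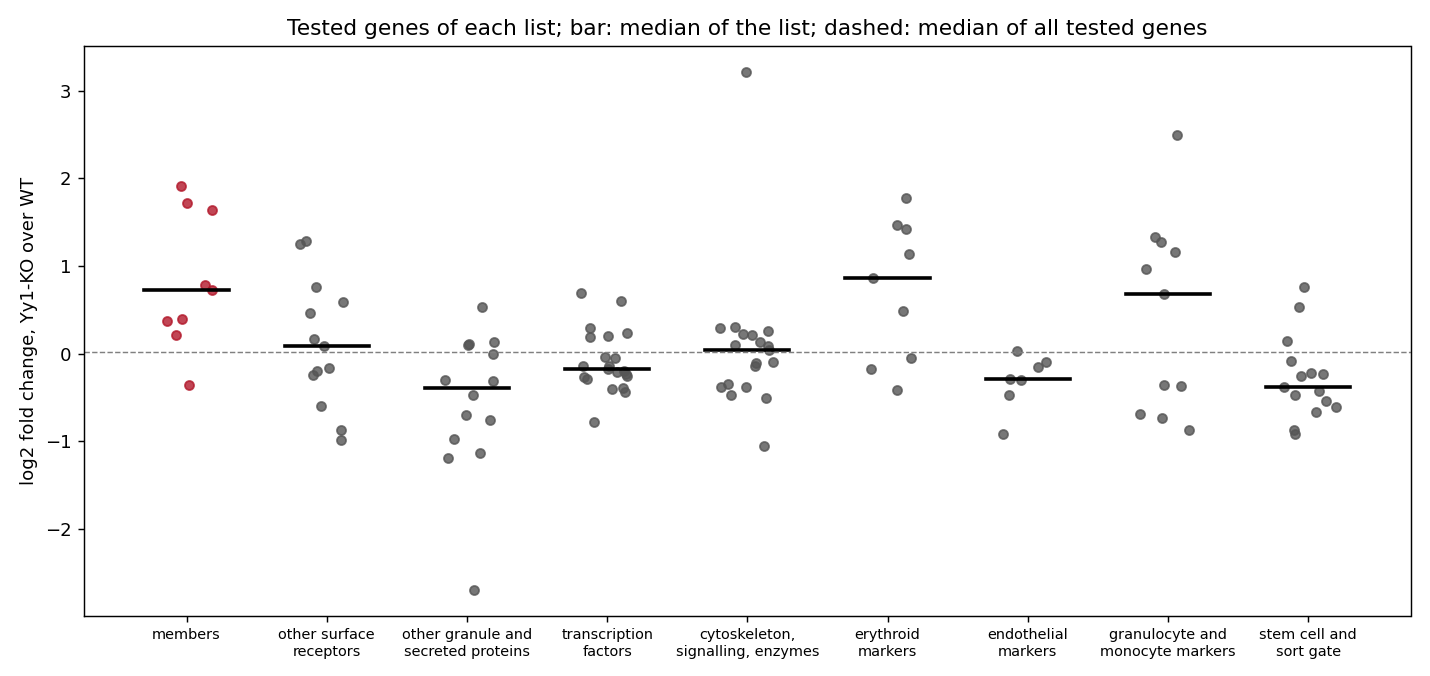
Log2 fold change (knockout over wild type) for the tested genes of each list, with a bar at the median of the list and a dashed line at the median of all tested genes. The members have a median of 0.73, the erythroid markers 0.87 and the granulocyte and monocyte markers 0.68. The other granule genes have a median of -0.40 and the stem cell and sort gate genes -0.38.

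Markers of other cells that express some of these genes are given beside them. Of 18 erythroid markers, 11 were listed. Their summed level was 225 to 285 RPKM in knockout and 224 to 272 RPKM in wild type. Car2, at 149, 142 and 124 RPKM in knockout and at 188, 165 and 200 RPKM in wild type, makes up much of that sum. The overlap of the sums therefore need not hold for the other markers. Of 9 tested, 6 lay above 0 (median 0.87). This median was 0.24 without wild-type replicate 3, 0.41 without knockout replicate 2, 0.54 without wild-type replicate 1 and 0.41 with a filter of 5 RPKM. Tspan33 and Hbb-bs were apart on the higher side, at 2.78 ± 0.636 and 41.1 ± 33.3 RPKM in knockout and 0.730 ± 0.255 and 10.98 ± 6.48 RPKM in wild type, and Car2 was apart on the lower side at 138 ± 13.1 RPKM in knockout and 184 ± 17.8 RPKM in wild type. Over all tested genes, 7.63% lay apart on the higher side and 6.87% on the lower side. Tspan33 reached 1 RPKM in the knockout libraries only, so it passed the filter through the group where it was higher. Its separation and direction are therefore tied to the filter.

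Endothelial cells also make Vwf and Selp. Of 15 endothelial markers, 10 were listed. Their sum was 182 to 223 RPKM in knockout and 213 to 272 RPKM in wild type. Erg, at 114, 115 and 146 RPKM in knockout and at 152, 142 and 163 RPKM in wild type, makes up most of that sum. Of 7 tested, 1 lay above 0 (median -0.29). The smallest p-values were those of Tek, Erg and Emcn, at log2 fold changes of -0.92, -0.29 and -0.47, and stem cells express the first 2 as well. Kdr, which marks endothelium, stayed under 1 RPKM in every library, and Cdh5 was not among the listed genes.

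Granulocyte and monocyte markers summed to 119 to 397 RPKM in knockout and to 147 to 300 RPKM in wild type, highest in knockout replicate 2, with 13 of 15 listed. Of their 11 tested genes 6 lay above 0 (median 0.68). The median turned to -0.29 without knockout replicate 2 and to -0.33 without wild-type replicate 3, and was 0.16 with a filter of 5 RPKM. The smallest p-values were those of Cd68, Prtn3 and Lyz2 (log2 fold changes 2.49, -0.69 and -0.36). Of the mast cell and basophil markers 1 of 9 was listed, Cpa3, at 1.25, 0.565 and 3.34 RPKM in knockout and 7.09, 2.90 and 0 RPKM in wild type. Of 12 lymphoid markers 2 were listed, Cd79b and Nkg7, whose sum was 17.9 to 28.3 RPKM in knockout and 18.0 to 37.3 RPKM in wild type.

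Stem cell and sort gate genes summed to 476 to 516 RPKM in knockout and to 667 to 764 RPKM in wild type. Of 15 tested, 12 lay below 0 (median -0.38), while 51.9% of all tested genes lay above 0. On the lower side 5 lay apart, against 6.87% of all tested genes. Kit, the stem cell factor receptor gene, and Hlf, a transcription factor gene, had log2 fold changes of -0.67 and -0.60 (limma adjusted p = 0.429 each), and the authors' deposited table called both at adjusted p-values of 0.0118 and 0.0384. The part of these other cell type markers and of the stem cell genes in the levels of the 10 genes was not tested.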

How the data were processed

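Sorted-cell RNA (RNeasy Micro) was amplified by the Ovation kit of NuGen and sequenced on an Illumina HiSeq, per the labels' protocols. The submitters' processing notes name mm10, Subread, featureCounts, edgeR and limma, without versions or order. The authors' RPKM values are taken from the deposited table, whose header names no unit; it was taken from the values. The log2 fold changes, p-values and adjusted p-values of the deposited table are the authors' own, per the file headers.

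Multiplied by the exonic length of GENCODE M21 (GRCm38), 71.8% of genes with a length gave whole reads within 0.02 in all 6 libraries, as did 8 of the 10 genes. Those of Gp5 and Gp1bb are estimates. The counting may not have used strand. Reads after amplification are not independent molecules, so intervals and floors cover counting error only.

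limma 3.58.1 in R 4.3.3 was fitted on log2(RPKM + 0.5), with genotype as the term, a variance trend and no robust fitting, two-sided, and Benjamini-Hochberg adjustment over all tested genes. The scripts were tested on simulated data with known changes. There this fit called 2 of 296 log2 changes of 1 and 62 of 287 log2 changes of 2, with 7 false calls. A gene that was not called may therefore still differ. Fold changes on this scale understate low genes. Named are all 10 genes, the 3 smallest p-values of each list, Gata1, Fli1, Runx1, Gfi1b, Gp1ba, Yy1 and the 5 nearest profiles; some of the named genes are not reported here, though list counts and sums include them. Genes and lists were chosen with earlier results of these data known. Alternatives varied the pseudocount, filter, scaling, trend, replicates and test.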

Additional observations from a re-analysis of the deposited data

How the results depend on the processing

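None of the 10 genes passed an adjusted p of 0.05 in any alternative run, the smallest being 0.256 for Gp9. The count of genes called in the whole table, 0 in limma, was 8 in limma-voom on recovered reads and ranged from 0 to 1 when 1 library was left out (1 each without wild-type replicate 1 and wild-type replicate 2). The median log2 fold change of the tested members, 0.73, was 1.19 with a filter of 5 RPKM, which left 6 of them, 0.44 with quantile normalization, and 0.44 to 0.86 with 1 library left out. Of 712 alternative log2 fold changes of 46 named genes, 697 kept their sign and side of the threshold, 15 changed sign and 0 became called. Without both knockout replicate 1 and wild-type replicate 3, the values that changed sign were Gfi1b at 0.28, Fli1 at 0.057 and Lyl1 at 0.027. Cpa3 turned to 0.17 with a pseudocount of 0.1 and to 0.90 in limma-voom. With 1 library or that pair left out, log2 fold changes ranged from -0.42 to 0.28 for Gfi1b, from -0.14 to 0.13 for Fli1, from -1.40 to 0.56 for Cpa3, from -0.34 to 0.018 for Runx1, from -1.15 to 0.027 for Lyl1, from -0.26 to 0.54 for Itgb3 and from -0.049 to 1.11 for Gp5. The cause was not tested.

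Deviations of same-numbered libraries of the genotypes correlated at 0.015, 0.059 and 0.047, and those of the other pairs at -0.076 to 0.035. For each knockout replicate the same-numbered wild-type library gave the highest value. All these correlations were small, and the numbers were not taken to pair the libraries. With a replicate block, the count of genes called was 0, and Gp9, Pf4 and Itga2b had adjusted p-values of 0.569, 0.569 and 0.620. Depth limits Gp1bb, Ppbp and Selp, whose lowest libraries held 0, 1 and 7 reads.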

Other observations

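Of the listed platelet genes that did not pass the filter, Treml1 and F13a1 varied widely between libraries of a genotype. Treml1, a platelet granule receptor gene, was at 5.06, 0.229 and 0 RPKM in knockout and at 0.0620, 0 and 11.3 RPKM in wild type. F13a1, which encodes the A chain of coagulation factor XIII, was at 0.0439, 0.684 and 1.99 RPKM in knockout and at 0, 0.0316 and 0 RPKM in wild type. The knockout values of F13a1 lay above its wild-type values, by little in knockout replicate 1. Both genes were chosen after their values were seen.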
